A study of Mus musculus with 19 samples.

Results

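The hair keratins and keratin-associated proteins comprised 75 of the 18521 genes in the count table. Members were chosen by name: 55 were genes whose symbol begins with Krtap, and 20 were Krt25, Krt26, Krt27, Krt28, Krt31, Krt32, Krt33a, Krt33b, Krt34, Krt35, Krt71, Krt72, Krt73, Krt81, Krt83, Krt84, Krt85, Krt86, Tchh and Padi3. Each needed at least 10 counts summed over all libraries. Of 76 genes with such names, Krtap13 had 2 counts and was left out, while Krtap28-13 with 34 and Krtap5-3 with 109 counts lay nearest above the limit. All are read here first as markers of where the hair follicles of a piece of skin stood in their growth cycle, mouse by mouse, and then by group.

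RNA was sequenced from 1 cm2 pieces of skin of mice, all female and of the line Ptch1+/- K14-CreER2 p53fl/fl. These animals lack 1 allele of the Hedgehog receptor Ptch1 and carry floxed p53 with a tamoxifen-inducible Cre under the keratin 14 promoter. All groups carried these alleles. Healthy skin was never induced and came from 5 mice (6 libraries) aged 128 to 137 days. Basal cell carcinoma (BCC) skin came from 4 mice (4 libraries) induced with 3 intraperitoneal injections of 300 µg tamoxifen and 1 x-ray irradiation of 4 Gy, and held early-stage tumours. Ablative fractional laser (AFL) skin came from 3 induced mice (4 libraries) given 1 laser treatment at 5% density and 40 mJ per microbeam. Vismodegib skin came from 4 induced mice (5 libraries) given 8 topical treatments with vismodegib, an inhibitor of Smoothened, the activator of the Hedgehog pathway. The labels give day 4 for every sample. Induced mice were 228 to 326 days old and had been induced 80 to 144 days earlier, so age and induction cannot be told apart in any comparison with healthy skin. No mice given vehicle or sham laser were analysed here, and the number and stage of follicles in each piece were not given. Mice are numbered within their group below, and the libraries of a mouse with a pair are called a and b.

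Hair keratins are the filament proteins of the hair shaft, and keratin-associated proteins (KAPs) form the cysteine-rich or glycine-rich and tyrosine-rich matrix around those filaments. Both are made in the bulb of follicles in anagen, the growth phase of the hair cycle, and are hardly made in telogen, the resting phase. The inner root sheath is the sleeve around the growing shaft, with its own keratins and the filament-binding protein trichohyalin (Tchh), which the enzyme Padi3 modifies. Within the shaft, Krt35 and Krt85 appear first, low in the bulb, other cortex keratins follow, and KAPs come on higher up. Hedgehog signalling, which the tumours activate and vismodegib blocks, is itself a driver of the onset of anagen.

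The promoters of these genes are shown because the members moved together across the mice and because many of them share a core element. Of the 75 members, 64 had an entry in the RefSeq promoter table (GRCm38.p6), which gives 250 bases before the first listed start site. The letters TATAAA on the gene's strand, lying between 40 and 16 bases before the start, were present in 39 of 64 members (60.9%), against 2.22% of the 27025 genes in the table. The share was 5 of 9 for inner root sheath genes, 3 of 4 for type I and 0 of 1 for type II hair keratins. Among KAPs it was 7 of 15 for high glycine-tyrosine, 12 of 18 for high-sulfur and 12 of 17 for ultra-high-sulfur genes. In the 90 bases before the start below, read 5′ to 3′ on the gene's strand, capitals mark TATAAA in that window. Krt71 (inner root sheath, chr15:101743098-101743187, minus strand), Krt25 (inner root sheath, chr11:99322952-99323041, minus), Krt31 (type I hair keratin, chr11:100050552-100050641, minus), Krtap8-1 (high glycine-tyrosine, chr16:89487953-89488042, minus) and Krtap4-7 (ultra-high sulfur, chr11:99644090-99644179, minus) hold it, and Krtap15 (high sulfur, chr16:88828919-88829008, plus) does not.
Krt71: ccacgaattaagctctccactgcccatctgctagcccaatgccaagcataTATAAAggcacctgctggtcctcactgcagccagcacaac
Krt25: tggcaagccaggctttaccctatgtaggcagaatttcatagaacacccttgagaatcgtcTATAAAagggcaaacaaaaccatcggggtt
Krt31: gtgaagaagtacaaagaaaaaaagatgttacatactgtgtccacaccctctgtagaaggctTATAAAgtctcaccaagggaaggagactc
Krtap8-1: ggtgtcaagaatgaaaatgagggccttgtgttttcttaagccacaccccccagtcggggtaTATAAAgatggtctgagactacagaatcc
Krtap4-7: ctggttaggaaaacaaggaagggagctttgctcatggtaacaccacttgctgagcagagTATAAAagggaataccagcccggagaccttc
Krtap15: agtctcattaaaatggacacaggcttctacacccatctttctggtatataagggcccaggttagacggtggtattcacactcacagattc

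The TATAAA letters began 40 bases before the start in Krt71, 30 in Krt25, 29 in Krt31 and in Krtap8-1, and 31 in Krtap4-7. Krtap15 has the similar letters tatataag, which begin before the window searched and were not counted. Letters bound by factors of the hair matrix were also searched in the whole 250 bases on both strands. CTTTG followed by a pair of letters that are each A or T, forms of the Lef1 core, occurred in 22 members (34.4%) against 14.9% of all genes, and in all 4 type I hair keratins with an entry. TCGTAAA, linked to Hoxc13, occurred in 1 member (1.56%) against 0.492%, and ACGC, the core of Foxn1, in 14 members (21.9%) against 49.8%. The members' promoters had a median GC content of 40.8% against 52.0%, and no count was adjusted for it. The members also lie close together in the GRCm38.p6 gene order, with gaps of up to 1000000 bases allowed. There, 33 form a run of type I keratins, inner root sheath keratins and KAPs. Another 23 form a run of KAPs with all 15 of the high glycine-tyrosine class, 7 form the type II run and 5 are a Krtap5 run. Krt85 had no entry under its symbol, so it was placed in no run and is not among the promoters.

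The 19 libraries held 27185900 to 33556600 counts each. Libraries of the same mouse were summed, which gave 16 mice as the replicates, and levels are in CPM, the counts divided by the scaled library size. A member with no count in a mouse could still have had up to 3 counts, or 0.0434 to 0.159 CPM, and this limit covers counting error only. For 21 of the 75 members at least 1 library had a fractional count, the mark of reads shared with a similar gene, and the split between near-identical KAP copies is uncertain. The authors' annotation and strand setting were not given in the sources used here. In whole skin, fewer hair-forming cells and less RNA per cell cannot be told apart.

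Expression of the module ranged from 39.1 to 55932 CPM between mice, and the groups overlapped, AFL and healthy skin excepted. That exception holds for libraries summed per mouse, since library b of healthy mouse 5 alone had 65.2 CPM, within the AFL range. Summed over all members, the healthy mice had 55932, 25674, 24945, 7035 and 1736 CPM in mice 1 to 5. The BCC mice had 21191, 262, 127 and 345 CPM, the AFL mice 66.6, 39.1 and 794 CPM, and the vismodegib mice 49.999, 26092, 90.4 and 135 CPM. Vismodegib mouse 2 thus lay between healthy mice 1 and 2, and BCC mouse 1 between healthy mice 3 and 4, both far above the other mice of their own groups. Means were 23065 ± 21228 (SD, n = 5) in healthy, 5481 ± 10473 (n = 4) in BCC, 300 ± 428 (n = 3) in AFL and 6592 ± 13000 (n = 4) in vismodegib skin, so the SD was close to the mean or above it in every group. Healthy mouse 1 had the highest level of 72 of the 75 members, and 46 members had healthy mice 1 to 3, BCC mouse 1 and vismodegib mouse 2 as their 5 highest mice. In the other direction, 47 members had no count in AFL mouse 2, 45 in vismodegib mouse 3 and 41 in vismodegib mouse 1.

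**Figure D1:**
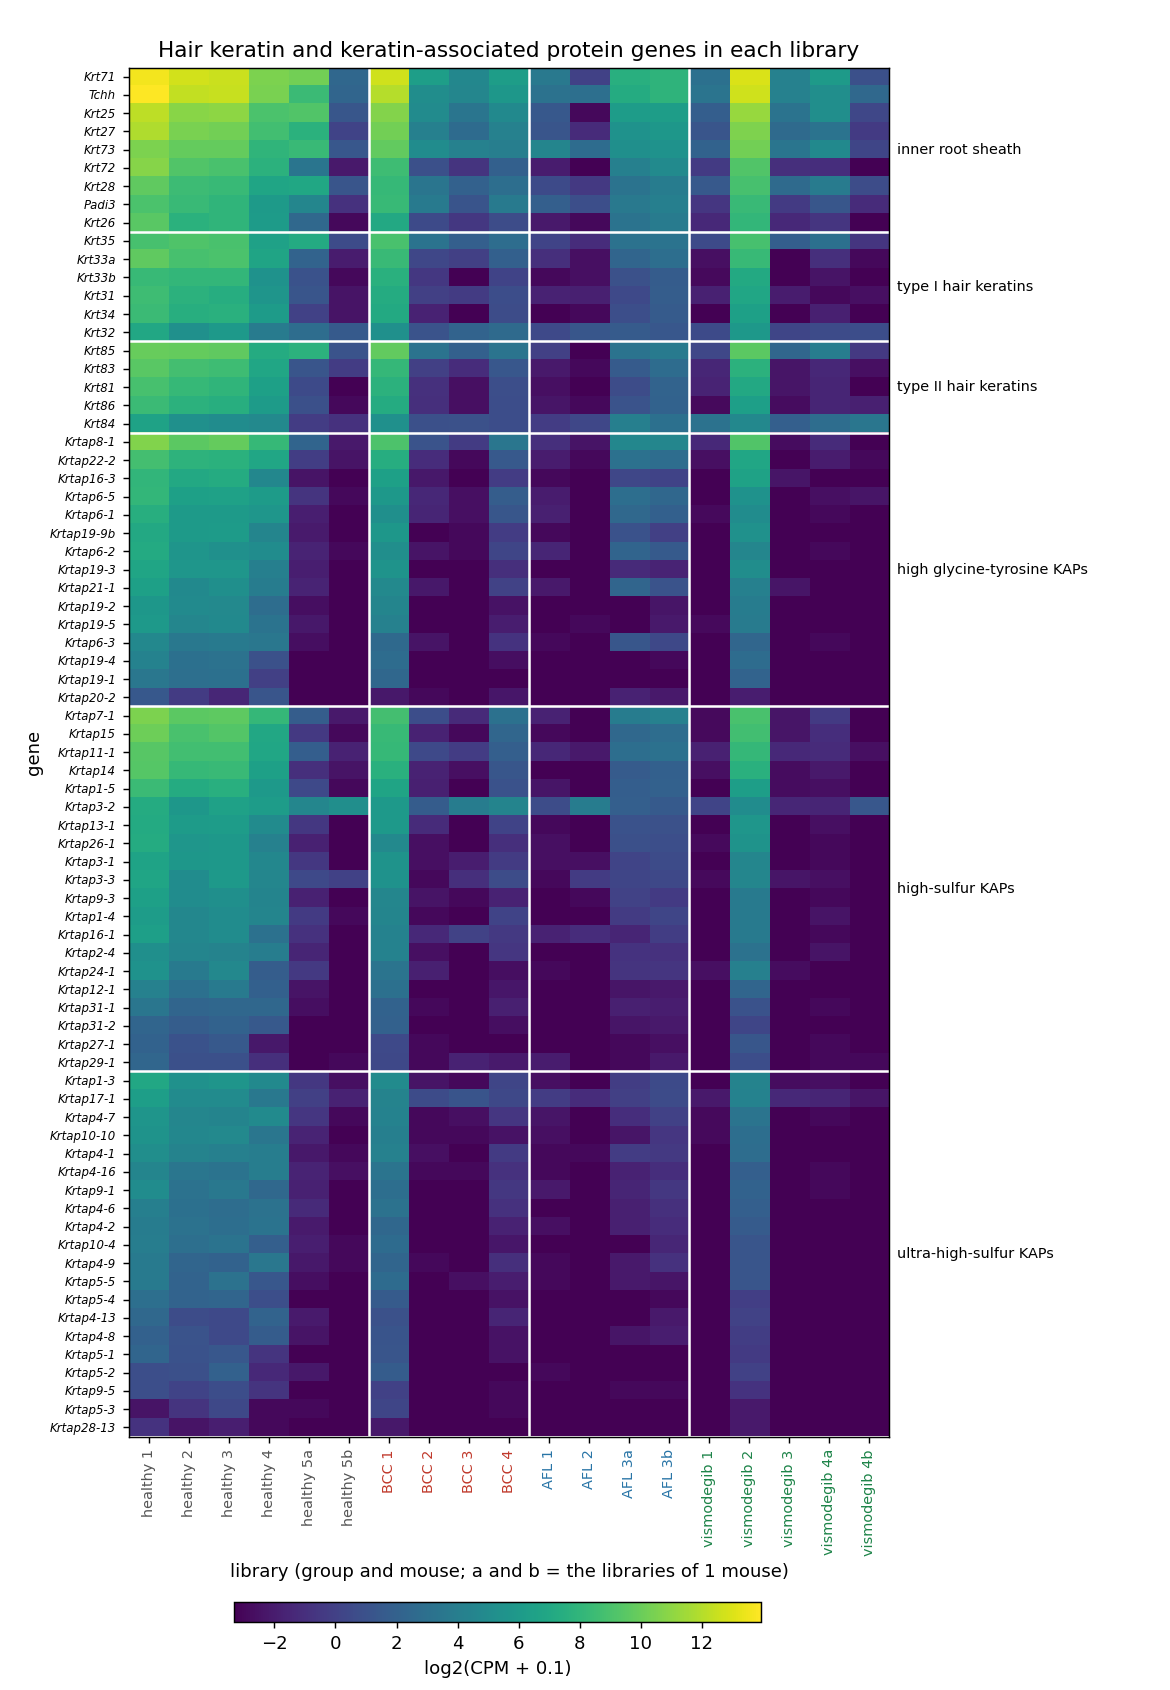
Level of each of the 75 members (rows, ordered by class and mean level) in each of the 19 libraries (columns, coloured by group), as log2(CPM + 0.1). Healthy mice 1 to 4, BCC 1 and vismodegib 2 are bright over all classes, while healthy 5a is bright mainly for the inner root sheath, Krt35 and Krt85.

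The hair matrix transcription factors act in the anagen bulb, and Ovol1 among them also in the epidermis. Their mean level ordered the mice in a similar way, but single factors did not all follow. Foxn1, Hoxc13, Msx1, Msx2, Dlx3, Lef1, Cux1 and Foxq1 were highest in the 5 mice with the highest member sums. Trps1 had 52.0 CPM in BCC mouse 3 against 23.0 CPM in healthy mouse 1, and Ovol1 280 CPM in vismodegib mouse 1 against 178 CPM. Prdm1 and Gata3 were higher in BCC mouse 4 (55.7 and 198 CPM) than in healthy mouse 2 (36.9 and 117 CPM). Over 12 such factors, the mean log2 level was 6.71, 6.47, 6.38, 5.30 and 5.29 in healthy mice 1 to 5 and 6.44, 4.43, 4.43 and 4.77 in BCC mice. It was 3.65, 3.99 and 3.87 in AFL mice and 4.30, 6.39, 3.96 and 4.67 in vismodegib mice. The 5 mice with the highest factor levels were the 5 with the highest member sums, and they were also the 5 highest for the melanocyte pigment genes, which are active in anagen bulbs. Pigment sums were 922, 1776, 1747, 91.3 and 293 CPM in healthy mice, 1260, 12.2, 12.1 and 15.7 CPM in BCC mice, 22.2, 13.8 and 14.7 CPM in AFL mice, and 11.7, 1047, 65.5 and 133 CPM in vismodegib mice. Below the top 5 the measures parted: AFL mouse 3 ranked 8th for the members but 15th for the factors and 12th for pigment genes.

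The inner root sheath class held 9 genes. Krt71, a type II keratin of all sheath layers, reached 12540, 6958, 5803, 1429 and 637 CPM in healthy mice 1 to 5. In BCC mice Krt71 had 6383, 80.5, 24.6 and 77.3 CPM, in AFL mice 12.9, 0.884 and 207 CPM, and in vismodegib mice 8.37, 7711, 19.8 and 35.4 CPM. All AFL mice lay below all healthy mice for Krt71, while BCC and vismodegib mice overlapped with them. Tchh had 15431, 5108, 5665, 1371 and 184 CPM in healthy mice, and 9.07, 7.65 and 193 CPM in AFL mice. Krt25, a type I partner of Krt71, had 4641, 1857, 2008, 514 and 307 CPM in healthy mice and 3.62, 2435, 9.82 and 19.4 CPM in vismodegib mice. Padi3, the enzyme that deiminates trichohyalin, was the sheath gene least like its class in the order of mice, with 12.4 CPM in healthy mouse 5 against 13.3 and 13.2 CPM in BCC mice 2 and 4.

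Krt73, a keratin of the sheath cuticle singled out after its values were seen, kept more of its level in the low mice. Per 100 CPM of Krt71 it stood at 11.5, 13.1, 15.8 and 17.1 in healthy mice 1 to 4, at 13.6 in BCC mouse 1 and at 15.8 in vismodegib mouse 2. The same ratio was 26.98 in healthy mouse 5, 40.5, 74.5 and 21.7 in BCC mice 2 to 4, 184, 748 and 19.2 in AFL mice 1 to 3, and 43.4 to 53.9 in the other vismodegib mice. The first AFL values rest on 12.9 and 0.884 CPM of Krt71.

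The first hair keratins of the shaft, Krt35 (type I) and Krt85 (type II), separated AFL from healthy mice without overlap when libraries were summed per mouse. Library b of healthy mouse 5 alone had 1.46 CPM of Krt35 and 2.01 CPM of Krt85, below AFL mouse 3. Krt35, the type I hair keratin least like its class in the order of mice, had 475, 572, 488, 92.4 and 78.7 CPM in healthy mice 1 to 5 and 1.02, 0.366 and 8.84 CPM in AFL mice. Krt85 had 976, 925, 837, 154 and 110 CPM in healthy mice and 0.888, 0 and 10.9 CPM in AFL mice. In BCC mice 2 to 4, Krt85 stood at 9.35, 3.70 and 10.0 CPM, close to AFL mouse 3. Among the keratins that follow in the cortex, Krt33a had 851, 476, 505, 104 and 2.31 CPM in healthy mice, Krt33b 314, 271, 265, 43.3 and 0.997 CPM, and the type II keratin Krt83 714, 428, 361, 119 and 1.52 CPM. Krt81, another cortex keratin, had 469, 303, 245, 87.0 and 0.708 CPM. Healthy mouse 5 thus lay close to healthy mouse 4 for Krt35 and far below it for Krt33a, Krt33b, Krt83 and Krt81.

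Krt84, a type II hair keratin known mainly from tongue papillae, followed its class least. It had 96.4, 40.2, 33.1, 27.4 and 0.607 CPM in healthy mice and 39.6, 1.70, 1.77 and 1.61 CPM in BCC mice. In vismodegib mice Krt84 had 9.53, 26.3, 3.88 and 9.02 CPM, and in AFL mice 0.761, 1.16 and 12.4 CPM. Between vismodegib mice 1 and 2, Krt85 thus went from 1.20 to 762 CPM, and Krt84 from 9.53 to 26.3 CPM. The Spearman rho of Krt84 over the 16 mice was 0.79 with the median of its class. With the module's own median profile it was 0.72, against a median of 0.94 for all members. These values describe these mice and carry no test.

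High glycine-tyrosine KAPs, which have at least 35% glycine and tyrosine codons, were led by Krtap8-1. It had 1614, 766, 888, 290 and 2.46 CPM in healthy mice 1 to 5, and 542, 2.03, 0.684 and 10.8 CPM in BCC mice. AFL mice had 0.412, 0.0915 and 24.1 CPM and vismodegib mice 0.307, 596, 0.0531 and 0.173 CPM of Krtap8-1. Healthy mouse 5 lay below BCC mouse 4 and AFL mouse 3. With libraries summed per mouse, healthy and AFL mice thus overlapped for Krtap8-1 though not for Krt71. Krtap22-2 had 435, 227, 199, 115 and 0.448 CPM in healthy mice, and Krtap16-3 had 260, 134, 149, 25.4 and 0.0434 CPM. Krtap19-1, the gene of this class least like it, had counts in 6 mice alone, at 11.4, 7.93, 7.81 and 0.868 CPM in healthy mice 1 to 4, 5.21 CPM in BCC mouse 1 and 4.38 CPM in vismodegib mouse 2.

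High-sulfur KAPs are here all KAPs in neither of the other KAP classes, with under 30% cysteine codons and no lower limit. They were led by Krtap7-1, Krtap15 and Krtap11-1. Krtap7-1 has 9.2% cysteine and 29.9% glycine plus tyrosine codons, and Krtap15 has 4.0% cysteine codons. The class name is therefore loose for these genes. Krtap7-1 had 1481, 750, 771, 288 and 1.79 CPM in healthy mice and 0.222, 0 and 16.5 CPM in AFL mice. Krtap15 ranged between 1111 and 0.332 CPM over the healthy mice and Krtap11-1 between 705 and 1.85 CPM. Krtap3-2 went against its class, an exception named after its values were seen: it had 156, 55.6, 89.1, 71.3 and 29.3 CPM in healthy mice, 62.9, 3.03, 14.9 and 21.9 CPM in BCC mice and 1.55, 15.2 and 3.21 CPM in AFL mice. Its counts were fractional in 17 of the 19 libraries, so part of them was assigned from reads shared with another gene. Krtap3-3, the gene least like this class by the order of mice, had 115, 32.7, 58.5, 23.8 and 1.11 CPM in healthy mice.

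Ultra-high-sulfur KAPs, with at least 30% cysteine codons, were led by Krtap1-3, Krtap17-1 and Krtap4-7. Krtap1-3 had 127, 42.6, 50.4, 29.1 and 0.332 CPM in healthy mice, and Krtap4-7, of the cortex, had 51.2, 23.7, 20.9, 30.1 and 0.304 CPM. Krtap17-1, the least like its class, had 79.6, 32.04, 31.4, 11.7 and 0.549 CPM in healthy mice, 20.7, 1.44, 2.11 and 1.28 CPM in BCC mice, and 0.761, 0.366 and 1.13 CPM in AFL mice. Krtap5-3 was highest in healthy mouse 3, at 1.21 CPM, with 1.10 CPM in BCC mouse 1 and 0.0887 CPM in healthy mouse 1. Per kilobase of the GENCODE transcript, which allows genes to be compared, the mean over 16 mice was 1199 CPM for Krt71, 516 for Krtap8-1, 428 for Krt25, 426 for Krtap7-1, 414 for Tchh and 21.5 for Krtap1-3.

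**Figure D2:**
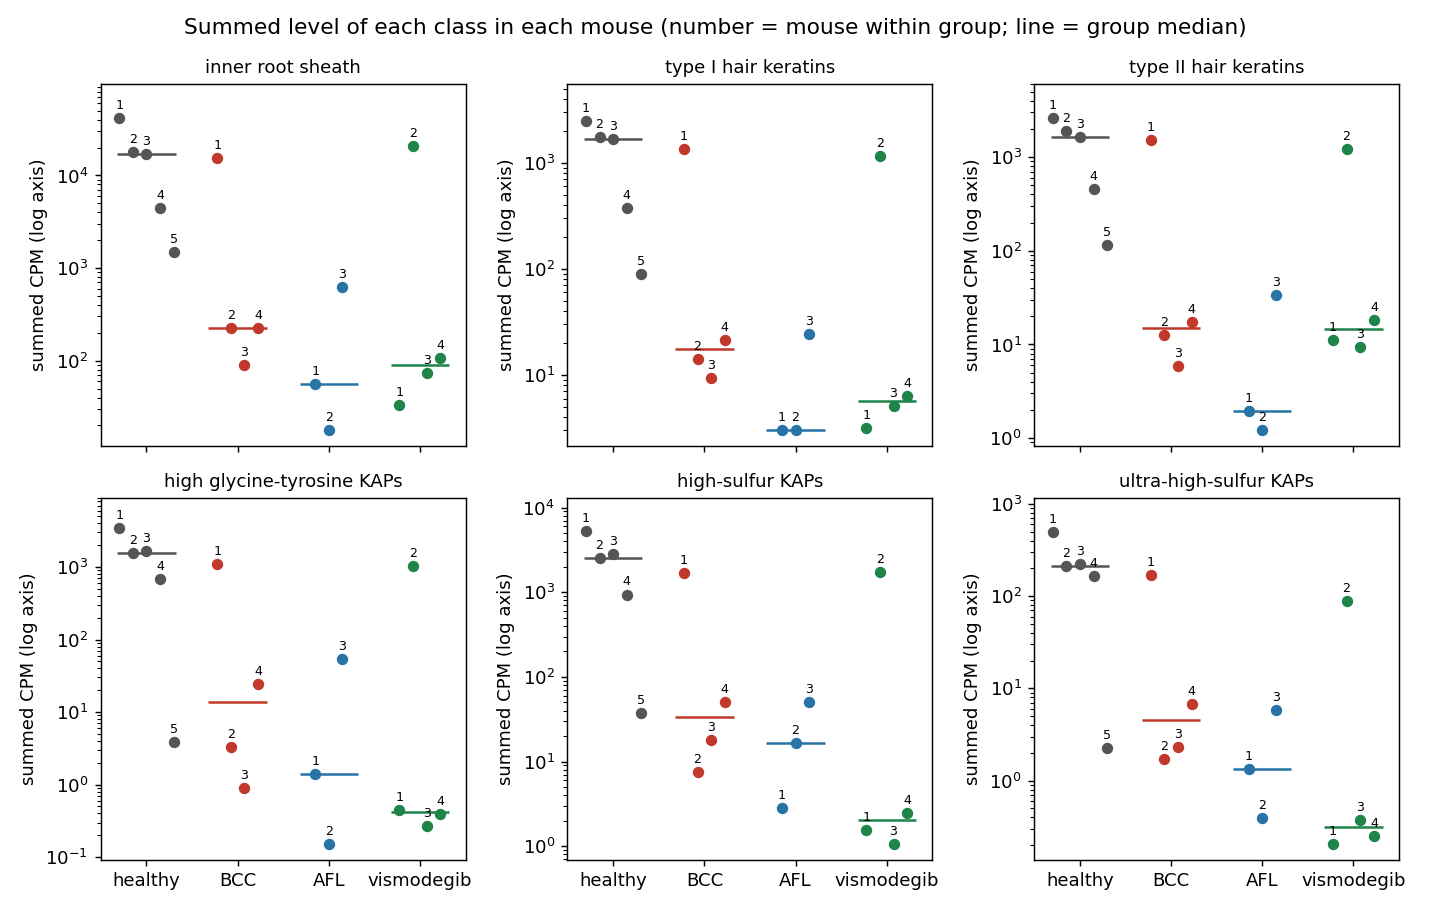
Summed CPM (log axis) of each class in each mouse, by group, with the mouse number beside each point and a line at the group median. BCC mouse 1 and vismodegib mouse 2 sit with the healthy mice in all 6 panels, and healthy mouse 5 drops towards the low mice in the KAP panels.

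The classes did not scale down together. KAPs, without Krtap3-2 and Krtap3-3 because of their shared reads (a choice made after seeing the data), stood at 21.6, 23.8, 26.97 and 38.0 CPM per 100 CPM of inner root sheath genes in healthy mice 1 to 4. The ratio was 18.7 in BCC mouse 1 and 13.4 in vismodegib mouse 2, but 0.866 in healthy mouse 5, from 893 KAP counts. In vismodegib mice 1, 3 and 4 it was 3.28, 1.79 and 1.62, from 32, 25 and 110 KAP counts. AFL mouse 3 and BCC mouse 4, with sheath sums of 625 and 225 CPM, had ratios of 17.0 and 25.6, within the range of the high mice. BCC mice 2 and 3 had 4.30 and 6.29, and AFL mice 1 and 2 had 7.01 and 6.32, from 326, 183, 124 and 37 KAP counts. With Krtap3-2 and Krtap3-3 included, the ratio moved most in the low mice, to 95.2 in AFL mouse 2, 23.2 in BCC mouse 3, 6.65 in vismodegib mouse 1 and 2.91 in healthy mouse 5.

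The later cortex keratins also varied against the first ones. Krt31, Krt33a, Krt33b, Krt34, Krt81, Krt83 and Krt86 together stood at 235, 140, 145 and 219 CPM per 100 CPM of Krt35 and Krt85 in healthy mice 1 to 4, and at 4.33 in healthy mouse 5. BCC mice had 107, 24.0, 27.1 and 80.1, AFL mice 50, 108 and 120, and vismodegib mice 32.5, 87.3, 4.71 and 7.14. The AFL values of mice 1 and 2 rest on 60 and 12 counts of Krt35 and Krt85. Healthy mouse 5 and vismodegib mice 3 and 4 thus had few of the later keratins beside their sheath genes and first shaft keratins. The values of vismodegib mice 3 and 4 rest on 8 and 59 later counts, at sheath sums of 74.2 and 107 CPM. Libraries a and b gave 6.08 and 29.7 in vismodegib mouse 4, and 4.09 and 32.5 in healthy mouse 5. The library b ratios rest on 11 and 37 later counts.

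Healthy mouse 4 differed from the other high mice within the KAPs. Its Krtap4 genes, ultra-high-sulfur KAPs of the cortex, summed to 33.9 CPM per 100 CPM of Krtap8-1, against 10.2, 10.6 and 7.77 in healthy mice 1 to 3, 13.2 in BCC mouse 1 and 5.11 in vismodegib mouse 2. Its pigment sum was 91.3 CPM, against 922 or more in those 5 mice. Skeletal muscle genes were also high in healthy mice 4 and 5, at 17104 and 23108 CPM over 8 genes, against 4195 to 6083 CPM in healthy mice 1 to 3, 1666 to 5037 CPM in BCC, 685 to 10428 CPM in AFL and 2105 to 7278 CPM in vismodegib mice, and their part in the lower levels of mice 4 and 5 was not tested.

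**Figure D3:**
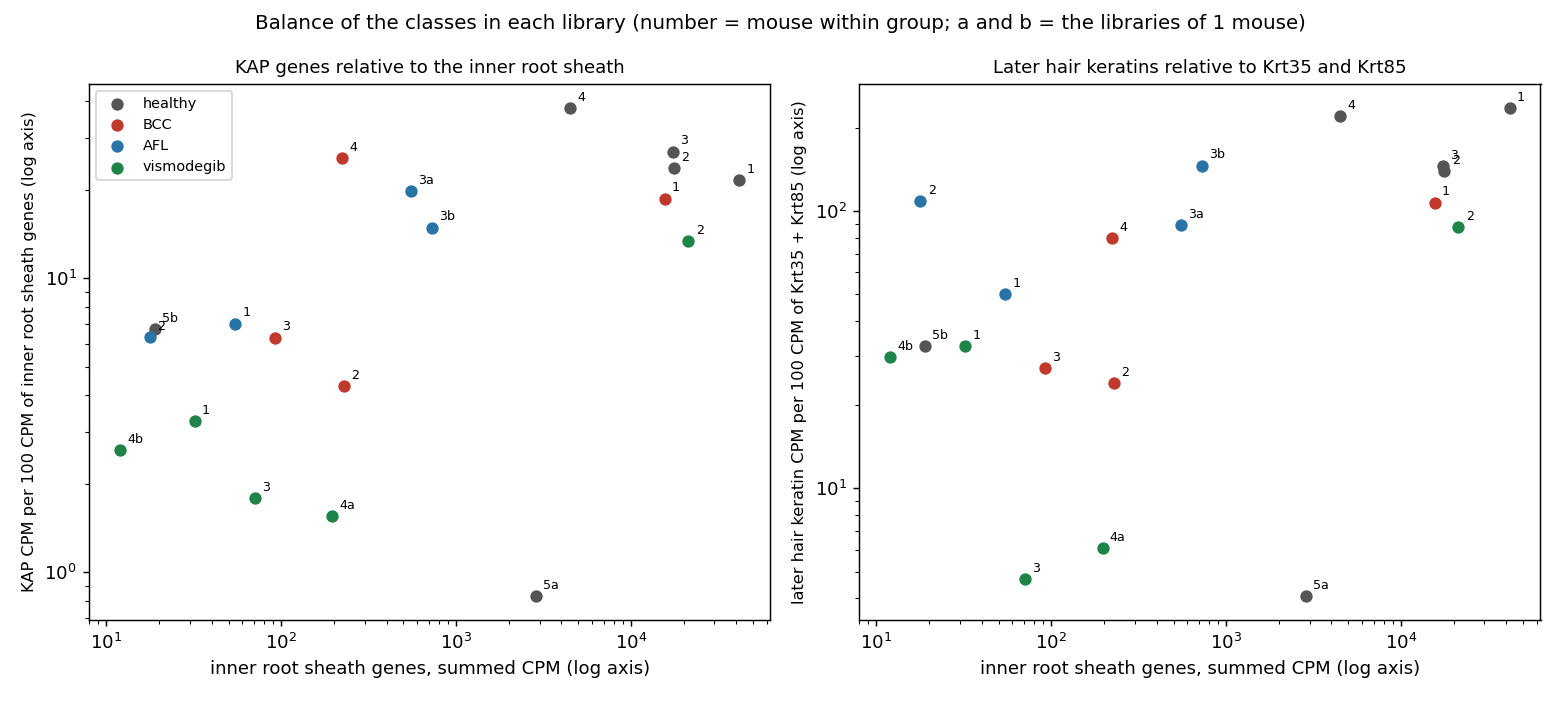
KAP CPM per 100 CPM of inner root sheath genes (left) and later hair keratin CPM per 100 CPM of Krt35 and Krt85 (right) against the sheath sum, 1 point per library, all axes logarithmic. Healthy 5a lies at a sheath sum of 2864 CPM with the lowest ratio in both panels, and AFL 3a and 3b lie near the ratios of the high libraries at sheath sums of 552 and 724 CPM.

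The 3 mice with a pair of libraries showed how far the module differed between libraries with the same mouse number. In healthy mouse 5, library a had 3297 CPM of members and library b 65.2 CPM. The sheath class stood at 2864 CPM in library a and 19.02 CPM in library b, 151 times less, type I hair keratins at 167 and 4.66 CPM, and type II hair keratins at 218 and 3.23 CPM. Krt25 had 591 and 2.35 CPM, Krt35 151 and 1.46 CPM, and Krtap8-1 4.64 and 0.122 CPM. Of 26 members with at least 30 counts in 1 of the libraries, 25 were higher in library a and 20 differed more than 10-fold. Krtap3-2 alone was higher in library b, at 36.1 against 23.6 CPM.

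The labels give mouse 16 for both of these libraries but ages of 128 and 135 days, so that 1 of the entries may be wrong. The libraries may thus not be of 1 animal at 1 age. Hair matrix factors summed to 976 CPM in library a and 437 CPM in library b, pigment genes to 530 and 39.5 CPM, and cell cycle genes to 605 and 129 CPM. Muscle genes went the other way, at 14500 and 32910 CPM. Nearly all the sheath and early keratin signal of healthy mouse 5 described above therefore came from library a.

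In vismodegib mouse 4, library a had 234 CPM of members and library b 28.5 CPM, with sheath sums of 196 and 12.0 CPM. Krt71 stood at 67.1 and 1.72 CPM and Krt85 at 16.0 and 0.625 CPM, while Krt84 had 7.09 and 10.7 CPM. In AFL mouse 3 the libraries were alike, with 720 and 901 CPM of members and sheath sums of 552 and 724 CPM. None of the 43 members of AFL mouse 3 with at least 30 counts differed more than 10-fold, and the folds of library a over b ran from 0.35 to 2.42.

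**Figure D4:**
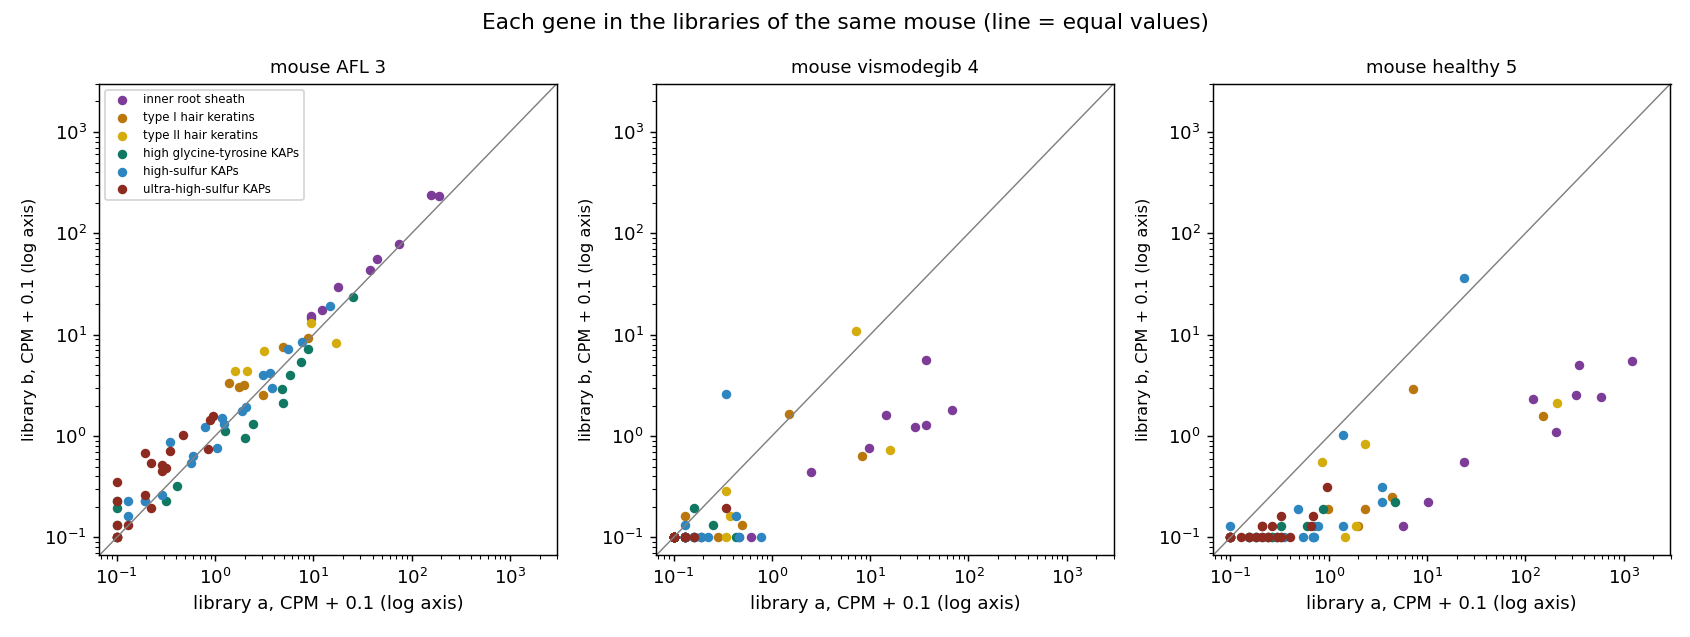
Each member in library a (horizontal) and library b (vertical) of the same mouse, as CPM + 0.1 on log axes, coloured by class, with the line of equal values. The points of AFL mouse 3 follow the line, and those of vismodegib mouse 4 and healthy mouse 5 lie below it for the sheath class and for most others.

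Group comparisons used edgeR's quasi-likelihood F test on all 16 mice, in which all p-values of a comparison were corrected together over 15760 tested genes (Benjamini-Hochberg), and a gene is called at an adjusted p under 0.05. Of the 75 members, 74 entered the test, and Krtap28-13 was too low. The gene lists for other cell types are described by counts of calls in the same fit.

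BCC against healthy skin asks what induction and its tumours go with. No member was called, where 2.82% of all genes tested were, 1 member had an unadjusted p under 0.05, and DESeq2 and limma voom called none. All 74 fitted log2 fold changes were negative, with a median of -2.17 against 0.00 for all genes, a median standard error of 2.02 and a smallest adjusted p of 0.154. Krt71 had a log2 fold change of -1.74 (SE 2.11, adjusted p = 0.761, edgeR) and Krtap8-1 of -2.36 (SE 2.51, adjusted p = 0.723). No member separated the groups without overlap, against 1.47% of all genes with every BCC mouse lower. Without BCC mouse 1 the median was -6.86, and of 73 members tested 0 were called, against 5.07% of all genes in that fit, though 72 had an unadjusted p under 0.05. Hair matrix factors had 0 of 12 and pigment genes 0 of 10 called in this comparison, while Lhx2, a factor of hair follicle stem cells, rose by 1.53 on the log2 scale (SE 0.31, adjusted p = 0.00985).

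AFL against BCC skin asks what the laser goes with in induced skin. No member was called, against 7.75% of all genes, 4 had an unadjusted p under 0.05, DESeq2 called 3, against 12.6% of all genes, and voom none. The fitted median was -4.26, or -4.25 with the 3 members that had no count in AFL skin set to their bounds. Of the 74 values, 73 were negative, and the median standard error was 2.67. Krt35 had -5.23 (SE 2.47, adjusted p = 0.25) and Krt84 had -1.21 (SE 1.44, adjusted p = 0.708). Krtap17-1 was the 1 member with all AFL mice below all BCC mice, a share under the 7.34% of all genes with that order. Without BCC mouse 1 the median was 0.30, and without AFL mouse 3 it was -7.77, so the sign rested on BCC mouse 1. With the mean level of hair matrix factors as a covariate the median was 2.33 with 0 called, against 7.61% of all genes. These factors act in the anagen bulb and had the same 5 highest mice as the members. Such a fit cannot separate a group difference in the members from hair phase. Of genes of other cell types, macrophage and neutrophil genes rose for 5 of 8, with a median of 3.58 over the list, and stem cell and resting follicle genes fell for 3 of 10, including Lhx2 by 2.07 and Bmp6 by 1.58.

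Vismodegib against BCC skin asks the same of the Hedgehog inhibitor. No member was called, though this comparison had the largest share of all genes called of the 6, at 17%, and 0 members had an unadjusted p under 0.05. DESeq2 and voom called none. Each group held 1 mouse with a high module, and the fitted median was -0.48 with a median standard error of 2.02. The classes had different signs: 8 of 9 sheath genes had positive values, with a median of 0.50, and all 19 ultra-high-sulfur KAPs had negative ones, with a median of -1.40, none of them past the threshold. Without vismodegib mouse 2 the median was -8.27 and 8 members were called lower, where 21.7% of all genes were called. Without BCC mouse 1 it was 4.22 with 0 called, against 19.8% of all genes. Stem cell and resting follicle genes fell for 5 of 10, including Lgr5, a stem cell receptor, by 1.88 (SE 0.43, adjusted p = 0.00832). Epidermal keratins rose for 5 of 10 and sebaceous gland genes for 4 of 7.

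AFL against healthy skin had the lowest member values. No member was called, against 9.24% of all genes, but 48 of 74 had an unadjusted p under 0.05, with a smallest adjusted p of 0.0774. DESeq2 called 49 members lower, where it called 15.8% of all genes, voom called 1, against 9.78%, and edgeR with the replicate number as a block called 3, against 9.93%. The fitted median was -6.48 (-6.39 with bounds), all 74 values were negative, and the median standard error was 2.92. By class, the medians were -6.17 for the sheath, -7.45 for type I and -7.24 for type II hair keratins, -6.43 for high glycine-tyrosine, -6.53 for high-sulfur and -6.49 for ultra-high-sulfur KAPs. With libraries summed per mouse, every AFL mouse lay below every healthy mouse for 12 of 74 members, against 11% of all genes with that order. The 12 were Krt25, Krt27, Krt28, Krt71, Krt73, Krt32, Krt35, Krt85, Krtap3-2, Krtap4-13, Krtap5-2 and Krtap5-3. For Krtap4-13, Krtap5-2 and Krtap5-3 this rests on levels within the limit of 3 counts, and with each AFL value raised to that limit 9 members kept the order, against 10.9% of all genes. In edgeR fits that left out 1 mouse, 2 members were called without healthy mouse 5, against 8.69% of all genes, 3 without BCC mouse 1, against 11.4%, and 5 without vismodegib mouse 2, against 11.0%. Without AFL mouse 3 the median was -9.94.

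Of the 12 hair matrix factors, 9 were not called between AFL and healthy skin and 3 were lower in AFL skin, where Dlx3 fell by 4.03 (SE 1.14, adjusted p = 0.0377, edgeR), Foxn1 by 2.52 and Lef1 by 4.25 on the log2 scale. With the mean level of these factors as a covariate, the median of the members was 1.19 and none was called, against 4.64% of all genes. Because the factors follow hair phase as the members do, that fit cannot separate a group difference from hair phase. Pigment genes had a median of -6.28 with 0 of 10 called. Macrophage and neutrophil genes rose for 8 of 8 and epidermal keratins for 4 of 10, and their part in the members' levels was not tested.

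Vismodegib against healthy skin gave the 1 called member of the module. Krtap20-2, a high glycine-tyrosine KAP at the bottom of its class, had 2.57, 0.700, 0.248, 2.26 and 0 CPM in healthy mice and 0, 0.152, 0 and 0 CPM in vismodegib mice, 198 against 5 counts in all. It fell by 4.83 on the log2 scale (SE 1.497, adjusted p = 0.0474, edgeR), where 11.6% of all genes were called in either direction and 4.07% lower. The mice overlapped, since healthy mouse 5 had none, and the call held in 4 of the 16 fits that left out 1 mouse, those without healthy mouse 5, AFL mouse 2, AFL mouse 3 or vismodegib mouse 2. It was lost without healthy mouse 3, vismodegib mouse 1, 3 or 4, AFL mouse 1 or any BCC mouse, where the values ran from -5.10 to -4.23 and the adjusted p from 0.0506 to 0.124, and without healthy mouse 1, 2 or 4 Krtap20-2 was too low to be tested. It was also lost with no low-count filter (-4.82, adjusted p = 0.0519, edgeR) and with the replicate block (-4.94, adjusted p = 0.0542). The fitted median of the members was -2.78, all 74 values were negative, 4 had an unadjusted p under 0.05, DESeq2 called 2, against 20% of all genes, and voom 1, against 10.3%. Without vismodegib mouse 2, 63 members were called lower, where 22.2% of all genes were called, and the median was -10.44.

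AFL against vismodegib skin compares the treatments. No member was called, against 9.15% of all genes, 0 had an unadjusted p under 0.05, DESeq2 called 4, against 16.0% of all genes, and voom none. The fitted median was -3.81 (-3.69 with bounds), with 73 of 74 values negative. Krt71 had -4.72 (SE 2.80, adjusted p = 0.301) and Krtap3-2 had -0.39 (SE 1.31, adjusted p = 0.875). Without vismodegib mouse 2 the median was 3.71, and without AFL mouse 3 it was -7.42. With the factor covariate it was 3.42, with 2 members called higher in AFL skin, against 10.4% of all genes called in that fit. The limit given above for this covariate holds here too. Ovol1, an epidermal and hair matrix factor, fell by 1.83 in AFL against vismodegib skin (SE 0.45, adjusted p = 0.0195) and was the 1 of 12 hair matrix factors called.

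**Figure D5:**
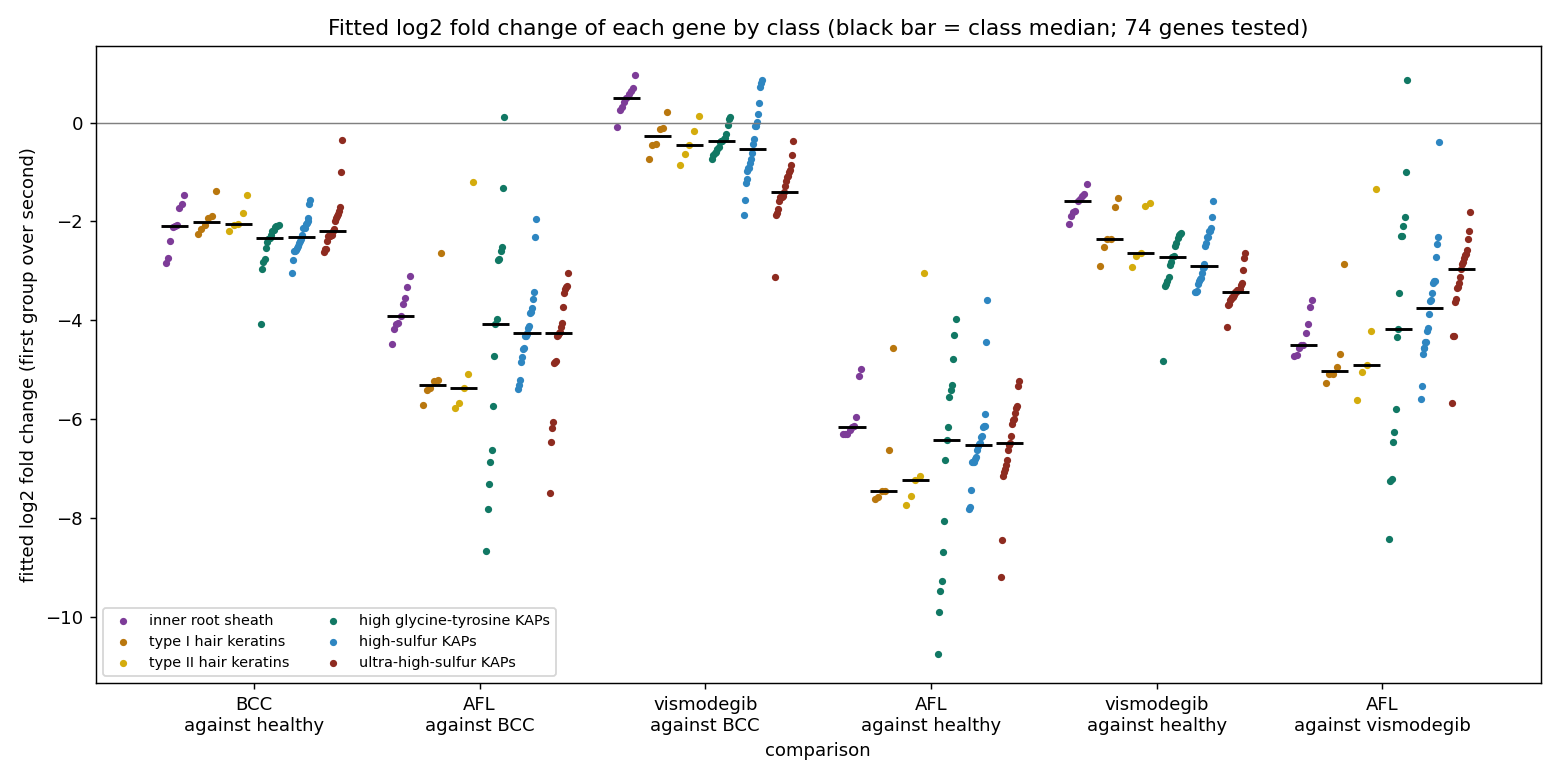
Fitted log2 fold change of each of the 74 members tested in each of the 6 comparisons, by class, with a black bar at the class median and a line at 0. Values lie between -10.76 and 0.96, all are negative in the comparisons with healthy skin, and 1 of them passed the threshold. The lowest is Krtap19-1, which had no count in AFL skin, so that its fitted value depends on the prior count.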

How the data were processed

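Polyadenylated RNA of whole skin was sequenced in 19 libraries of 16 mice. The deposited values are expected counts per gene, which the authors made with Bowtie2 and RSEM against GRCm39, per the submitters' processing notes. For versions, annotation, strand setting and filters, nothing is given in the sources used here, and 3.42% of the values are fractional. The kit was directional with oligo dT selection, per the labels' protocols. Expected counts were rounded to whole numbers and summed per mouse (the labels give mouse numbers, and mice 11, 12 and 16 have a pair of libraries each). Genes were filtered with filterByExpr by group, which left 15760, scaled by TMM and fitted with edgeR 4.0.16 (R 4.3.3, glmQLFit with robust estimates, glmQLFTest) on group alone (common dispersion 0.178). P-values measure the spread between these mice. The fit was tested on simulated data first. Log2 fold changes come with standard errors (SE), and class and list values are medians with no test. Where a group had no count, a bound set at 3 counts was used in the medians given with bounds.

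KAP classes were set from codon shares of GENCODE M21 coding sequences (30% cysteine, 35% glycine plus tyrosine), in place of the RefSeq proteins that had been planned. KAPs that met neither limit were called high-sulfur. Promoters are RefSeq's for GRCm38.p6, another build than the counts. Members, classes and lists were chosen with earlier results of these data known. Genes named are the 3 highest and the least alike in each class, called members and those at the count limit, and for other lists those with the smallest p or highest level. The alternatives were DESeq2 1.42.0, limma 3.58.1 voom with the mouse as a random effect, RLE or library size scaling, other filters, other uses of paired libraries, covariates, a replicate block and leaving out each mouse.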

Additional observations from a re-analysis of the deposited data

Results flagged for a closer look

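Among the sums per class in the groups of 4 and 5 mice, BCC mouse 1 and vismodegib mouse 2 stood apart from the rest of their group in every class by Dixon's test at the 95% level, and no healthy mouse did. Over all members, BCC mouse 1 had 21191 CPM against 345 CPM in the next mouse, and vismodegib mouse 2 had 26092 CPM against 135 CPM. For the inner root sheath genes the values were 15346 CPM in BCC mouse 1 and 20863 CPM in vismodegib mouse 2. For type I hair keratins they were 1343 and 1164 CPM, and for type II hair keratins 1530 and 1216 CPM. High glycine-tyrosine KAPs had 1113 and 1047 CPM, high-sulfur KAPs 1688 and 1714 CPM, and ultra-high-sulfur KAPs 171 and 88.6 CPM. Gene by gene, BCC mouse 1 stood apart for 72 and vismodegib mouse 2 for 73 of the 74 members tested. The sums were tested as untransformed CPM, while the limits of Dixon's test assume normally distributed values. Under that assumption alone, chance flags about 1 in 20 such groups, so the 95% level is nominal here. Whether the flags hold for log values was not tested. The classes and genes come from the same mice, so the flags are not independent of one another. The AFL group, with 3 mice, was not tested.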

How the results depend on the processing

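The values rest on 1 high mouse in each of the BCC and vismodegib groups and on AFL mouse 3. Leaving out each of the 16 mice in turn, the member median ranged from -6.86 to -1.65 in BCC against healthy, -7.77 to 0.30 in AFL against BCC, -8.27 to 4.22 in vismodegib against BCC, -9.94 to -5.92 in AFL against healthy, -10.44 to -2.19 in vismodegib against healthy and -7.42 to 3.71 in AFL against vismodegib. The number of members called then ranged from 0 to 8 in vismodegib against BCC, 0 to 5 in AFL against healthy and 0 to 63 in vismodegib against healthy, and was 0 throughout in the other comparisons.

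DESeq2 called 3 members in AFL against BCC (12.6% of all genes), 49 in AFL against healthy (15.8%), 2 in vismodegib against healthy (20%) and 4 in AFL against vismodegib (16.0%). In AFL against healthy, 2 were called with the 19 libraries as replicates (19.5% of all genes) and 1 with voom (9.78%). In vismodegib against healthy, 0 were called with the 19 libraries, with no low-count filter and with a filter of 1 CPM in 3 mice. With the hair matrix factor covariate, 1 member was called in vismodegib against BCC (23.6% of all genes) and 2 in AFL against vismodegib (10.4%). The medians were then 2.33 in AFL against BCC, 1.19 in AFL against healthy and 3.42 in AFL against vismodegib. This covariate cannot separate a group difference from hair phase, and the cause was not tested. Under the scalings run, the group mean of the member sum ran from 19110 to 24034 CPM in healthy and from 4495 to 5711 CPM in BCC skin. It ran from 257 to 299 CPM in AFL and from 5625 to 6624 CPM in vismodegib skin. Each move was under 1 SD, which is a wide limit, since the SD was close to the mean or above it. Scaling by library size alone shifted the median of all genes to -0.30 in vismodegib against BCC, the largest shift.

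With the replicate number as a block, 3 members were called in AFL against healthy (9.93% of all genes) and 0 in vismodegib against healthy, where Krtap20-2 had -4.94. The numbers did not pair the mice: same-numbered mice had correlations of -0.37 to 0.66 over 21 pairs, 8 of them over 0.1, and 1 of 16 mice was most like its own number. The choice of the higher-numbered library of each pair was added after seeing the data and changed no count of calls, and neither did the lower-numbered library, RLE scaling, library size alone or, in the 3 comparisons among induced mice, days since induction as a covariate.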
